A study of Mus musculus with 16 samples.

Results

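This section describes 5 genes of mouse ileum that belong to the estrogen-related receptor (ERR) pathway of energy metabolism: Esrrg and Esrra, which encode the receptors ERRγ and ERRα, Ppargc1a and Ppargc1b, which encode the coactivators PGC1α and PGC1β, and Nrip1, which encodes the corepressor RIP140. They were picked by gene symbol out of 24940 genes in the count table, and all 5 passed the filter on low counts, as did 15598 genes in all. The symbols were chosen with the genotype differences of these libraries already known, and Esrrg was among the genes with the smallest p-values for genotype over both sexes. The differences between genotypes of the 5 genes are therefore selected values: they are given as a description, and where counts of calls among them are set beside all genes nothing is read from these. Their differences between the sexes, and the difference of the genotype effect between the sexes, played no part in the choice and were tested.

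ERR receptors are orphan nuclear receptors: no natural hormone is known for them, and their output depends on the coregulators that they bind. PGC1α and PGC1β bind ERRα and ERRγ and turn on genes of fatty acid oxidation, the tricarboxylic acid (TCA) cycle and the respiratory chain. RIP140 binds the same receptors and represses many of the same genes. ERRα is abundant in tissues with high oxidative activity, including the absorptive epithelium of the small intestine, and ERRγ is best known from heart, muscle, brown fat, stomach and liver.

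Poly(A) RNA was sequenced from a short piece of ileum next to the cecum of 16 C57BL/6 mice, 4 in each of 4 groups, WT and LKO of each sex. WT mice were Bcl6fl/fl, with loxP-flanked Bcl6 and no Cre. LKO mice (Bcl6LKO) carried the same floxed alleles and Albumin-Cre, which is driven by the promoter of the liver gene for albumin and deletes Bcl6, the gene of a transcriptional repressor, in hepatocytes. Every mouse of all 4 groups was thus floxed, the Cre transgene was the difference between genotypes, and no group had Cre alone. The study asked how loss of hepatic BCL6 alters bile acid signaling in the intestine. Age was not given for these samples, and mice were fed freely or fasted briefly unless stated otherwise, so feeding state could not be assigned to a library. Each library has its own number in the sample titles, and p-values measure the spread between these libraries.

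The gene counts of 15 libraries summed to between 15.7 and 20.5 M reads (M, 1000000), and female LKO replicate 1 was deeper, with 60.3 M. Values are counts per M reads of a library (CPM) after scaling of libraries by the trimmed mean of M-values (TMM). Every pair of replicates differed beyond sampling noise (chi-square divided by its degrees of freedom, 8.84 to 29.4). Albumin-Cre should leave Bcl6 whole in the gut, so the ileal Bcl6 level is no check of the deletion, and it averaged 15.9 ± 1.61 CPM in male WT, 18.9 ± 2.05 CPM in male LKO, 12.1 ± 2.92 CPM in female WT and 20.7 ± 5.02 CPM in female LKO (SD, n = 4 each). Markers of absorptive enterocytes, of ileal enterocytes and of smooth muscle were present in every group, and no marker gene of the 17 cell type lists was at 0 in any group.

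The 5 genes differed widely in level. Dividing CPM by the exon length of the counted transcript allows levels to be compared between genes. On this scale Esrra averaged 87.5 CPM per kb over the 16 libraries, Nrip1 6.67, Ppargc1b 3.43, Ppargc1a 2.09 and Esrrg 0.895. Esrra stood at the 94.6th percentile of the genes tested and Esrrg at the 14.6th. Esrra lay between 77.9 and 96.1 CPM per kb and Esrrg between 0.393 and 1.45 CPM per kb, so the 2 receptor genes never came near each other. The lowest Nrip1 level, 4.20 CPM per kb, lay below the highest Ppargc1b level, 4.64 CPM per kb, and the lowest Ppargc1b level, 2.54 CPM per kb, lay below the highest Ppargc1a level, 3.34 CPM per kb, so these neighbours in the order overlapped in single libraries. Esrrg rested on 37 to 161 reads per library, where counting error alone gives a coefficient of variation of 7.88% to 16.4%. Esrra rested on 3032 to 12429 reads.

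The counted transcripts bear on what was measured. Esrrg (NM_011935) lies on chromosome 1, chr1:187997827-188214884 (mm10, plus strand), and its counted transcript has 7 exons over 5283 bases. RefSeq lists 4 start sites for the gene, and the counted transcript begins at the most downstream one, so reads in exons used only by upstream starts were not counted. Esrra (NM_007953, chr19:6910977-6921808, minus strand) was counted over 7 exons and 2233 bases. Ppargc1a was counted over NR_027710, a non-coding record of the locus with 13 exons (chr5:51454249-51553921, minus strand), and the listed coding start site lies 13804 bases away from its start. Ppargc1b (NM_133249, chr18:61298136-61400431, minus strand) was counted over 12 exons, and Nrip1 (NM_173440, chr16:76287403-76373049, minus strand) over 4. The counts cover all exons of these transcripts, so they do not separate isoforms that share exons.

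Esrrg was lower in LKO than in WT ileum of both sexes, at 0.465 of the WT level. In male WT the 4 libraries held 7.52, 7.65, 6.74 and 4.72 CPM, and in male LKO 3.51, 3.23, 3.50 and 2.38 CPM. In female WT they held 6.20, 6.49, 7.35 and 4.93 CPM, and in female LKO 2.60, 3.42, 2.08 and 3.35 CPM. All 8 WT libraries lay above all 8 LKO libraries, with male WT replicate 4 and female WT replicate 4 the lowest of WT. The group means were 6.66 ± 1.35 CPM in male WT, 6.24 ± 1.00 CPM in female WT, 3.16 ± 0.534 CPM in male LKO and 2.86 ± 0.640 CPM in female LKO (SD, n = 4 each). In this order the sexes overlapped within each genotype, and female WT did not overlap male LKO. The fitted log2 fold change, LKO against WT, came to -1.07 (SE 0.19) in the males, -1.14 (SE 0.19) in the females and -1.11 (SE 0.13) over both sexes. Fewer cells that express a gene and less RNA per cell cannot be told apart in bulk tissue.

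**Figure D1:**
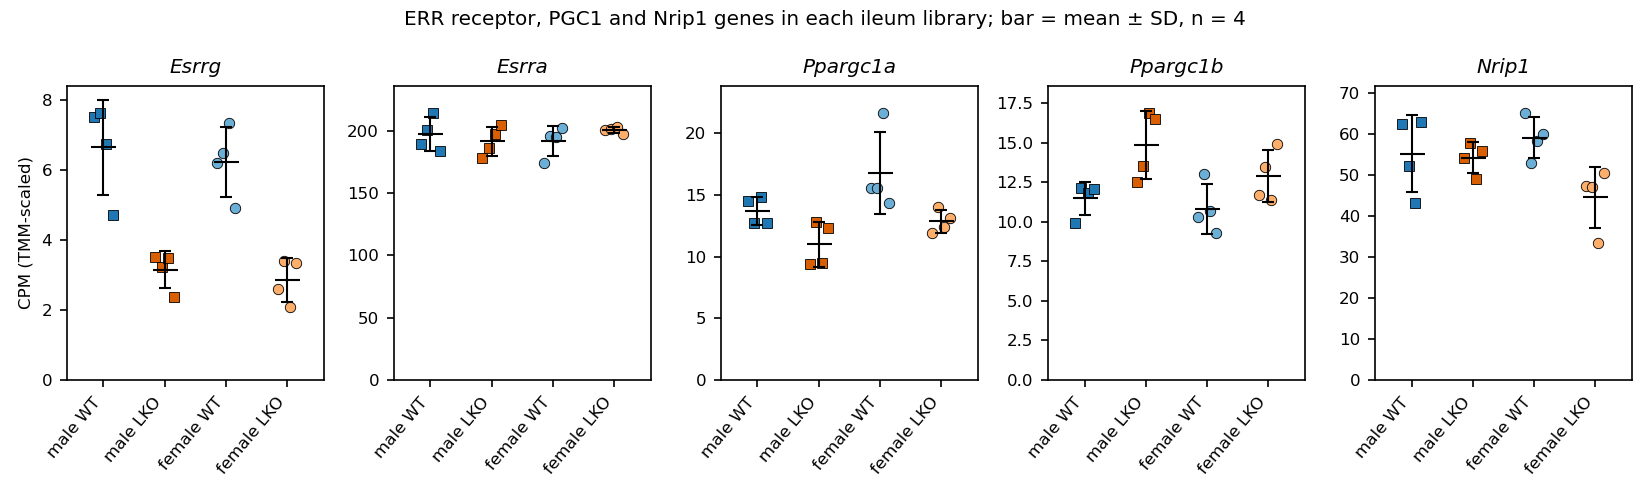
CPM (TMM-scaled) of the 5 genes in each of the 16 libraries, with 1 panel per gene and a linear axis that starts at 0. Squares are males, circles are females, and the bar with whiskers is the mean ± SD of 4 libraries. All WT points of Esrrg lie above all LKO points, and Esrra stays between 174 and 215 CPM in all 4 groups.

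The numbers in the sample titles fall into 5 runs of neighbouring numbers, and the size of the Esrrg difference varied with them. The labels do not say what the numbers stand for. The low WT library of each sex belongs to a mixed run of 6 libraries, which holds replicate 4 of male WT and of female WT, replicate 1 of male LKO and replicates 2 to 4 of female LKO. Within this mixed run the male pair held 4.72 CPM in WT and 3.51 CPM in LKO, a log2 ratio of -0.43, and the females held 4.93 CPM in WT against 2.08 to 3.42 CPM in 3 LKO libraries, a log2 ratio of -0.74. In a second run, of 3 female libraries, WT replicates 1 and 2 held 6.20 and 6.49 CPM and LKO replicate 1 held 2.60 CPM, a log2 ratio of -1.29. LKO lay below WT in each of these 3 comparisons within a run, but each had only 1 library of WT or of LKO, so this is a description. The 95% counting intervals of the male pair overlapped, at 74 to 113 reads in WT and 54 to 87 in LKO. In females of the mixed run that of WT, 72 to 111 reads, overlapped those of LKO replicates 2 (42 to 73) and 4 (48 to 81). It did not overlap that of LKO replicate 3 (26 to 51). The other 3 runs hold WT libraries only or male LKO libraries only, so for most of the male comparison the run and the genotype cannot be told apart. Over both sexes the log2 fold change was -0.62 (SE 0.25) with the 6 libraries of the mixed run alone, -1.30 (SE 0.14) without them, and -0.87 (SE 0.18) with the run as a factor. In males it was -0.60 (SE 0.28) with the title number as a covariate.

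**Figure D2:**
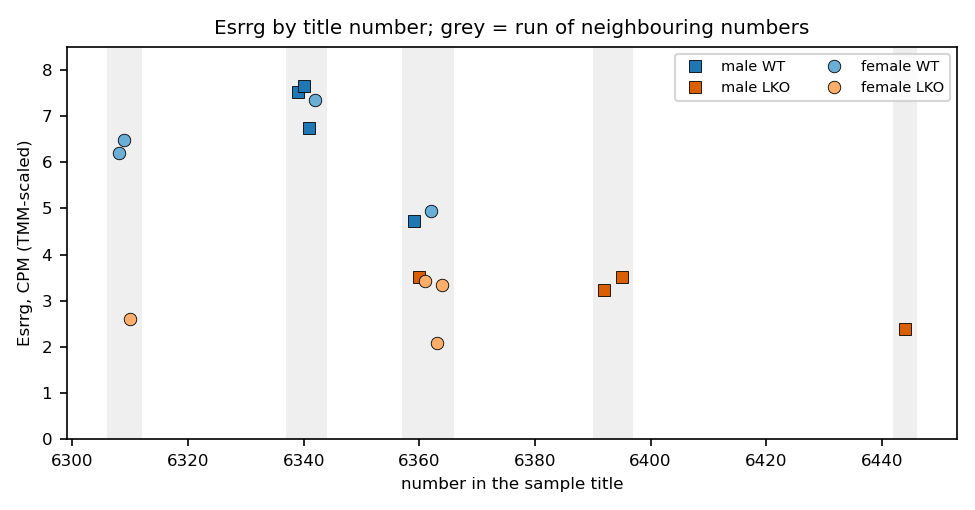
Esrrg in CPM (TMM-scaled) against the number in each sample title, with grey bands for the 5 runs of neighbouring numbers. Squares are males and circles are females. The WT libraries of the mixed run, the third from the left, hold 4.72 and 4.93 CPM, below the other 6 WT libraries and above every LKO library.

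Esrra, the abundant receptor gene, differed little between the genotypes. Male WT libraries held 189, 201, 215 and 184 CPM, and male LKO libraries 178, 186, 197 and 205 CPM. Female WT libraries held 174, 196, 195 and 202 CPM, and female LKO libraries 201, 201, 203 and 197 CPM. All 4 groups overlapped, with means between 191.6 and 201 CPM. Its log2 fold change came to -0.04 (SE 0.072) in males, 0.07 (SE 0.060) in females and 0.01 (SE 0.045) over both sexes, with a 95% interval from -0.08 to 0.11. Esrra was 72.3 ± 14.9 times as abundant as Esrrg per kb in male WT, 74.4 ± 15.5 times in female WT, 148 ± 37.4 times in male LKO and 173 ± 43.8 times in female LKO (SD, n = 4 each). Esrrg thus made up at most 1.65% of the summed level of both receptor genes per kb in any library.

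The genes of the coactivators differed from each other in direction. Ppargc1a, a coactivator gene that is switched on by fasting and cold in other tissues, was lower in LKO. In male WT it stood at 14.5, 12.7, 14.8 and 12.7 CPM, and in male LKO at 9.36, 12.8, 9.46 and 12.3 CPM. The male groups overlapped, since 1 LKO library exceeded 2 of the WT libraries by a small margin. In female WT it stood at 15.5, 15.5, 21.7 and 14.3 CPM, and in female LKO at 11.9, 14.0, 12.4 and 13.1 CPM. The female groups did not overlap, although the gap from the lowest WT library to the highest LKO library was narrow. Its log2 fold change came to -0.31 (SE 0.13) in males, -0.39 (SE 0.13) in females and -0.35 (SE 0.091) over both sexes. Without female WT replicate 3, the highest of all libraries, it was -0.24 (SE 0.099) in females and -0.28 (SE 0.080) over both sexes.

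Ppargc1b, the closest relative of Ppargc1a, was higher in LKO. In male WT it stood at 9.89, 12.1, 11.8 and 12.1 CPM, and in male LKO at 12.5, 13.5, 16.9 and 16.5 CPM. Every male LKO library lay above every male WT library. In female WT it stood at 10.3, 13.0, 10.7 and 9.27 CPM, and in female LKO at 11.7, 13.4, 11.4 and 14.9 CPM. The female groups overlapped through female WT replicate 2. Its log2 fold change came to 0.38 (SE 0.12) in males, 0.25 (SE 0.13) in females and 0.31 (SE 0.089) over both sexes. In males it was 0.12 (SE 0.18) with the title number as a covariate, and over both sexes 0.20 (SE 0.13) with the run of numbers as a factor.

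In these libraries the balance of the coactivator genes therefore differed between the genotypes, while their sum hardly did. Both genes were chosen with their genotype differences known, and edgeR called neither over both sexes, so the ratio is a description of selected values. It was not set beside ratios of other gene pairs, nor fitted with the title number or its run. Per kb, Ppargc1b stood at 1.50 ± 0.234 times the level of Ppargc1a in male WT, 2.45 ± 0.535 times in male LKO, 1.17 ± 0.250 times in female WT and 1.78 ± 0.171 times in female LKO (SD, n = 4 each). In each sex the lowest LKO ratio, 1.88 in males and 1.63 in females, exceeded the highest WT ratio, 1.70 in males and 1.49 in females. The summed level of both genes per kb was 5.26 ± 0.233 CPM in male WT, 5.77 ± 0.669 CPM in male LKO, 5.55 ± 0.694 CPM in female WT and 5.52 ± 0.556 CPM in female LKO (SD, n = 4 each), with overlap between the genotypes in both sexes. Only female WT replicate 3 had more Ppargc1a than Ppargc1b per kb, with a ratio of 0.879. The ratio rests on the counted transcripts named above. Another length alone would shift it by a constant, but other transcripts could also change which reads are counted, and this was not tested.

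**Figure D3:**
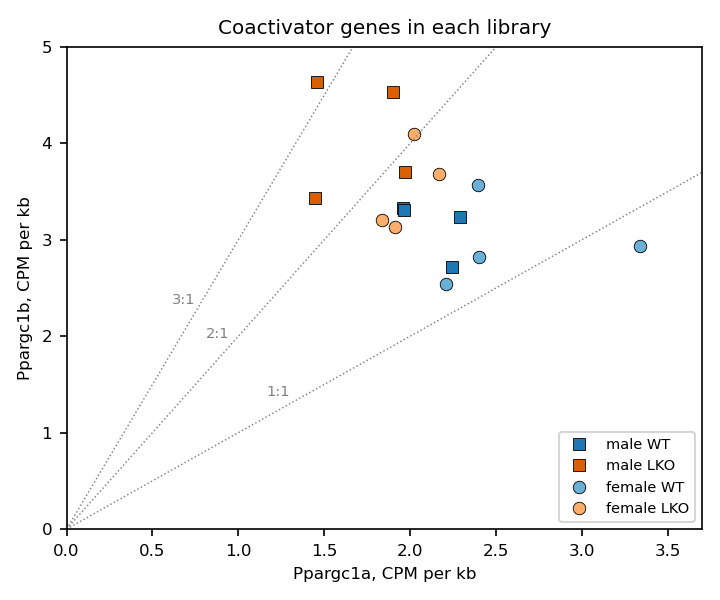
Ppargc1b against Ppargc1a in each of the 16 libraries, both in CPM per kb of counted transcript, with dotted lines at ratios of 1, 2 and 3. Within each sex the LKO points lie at higher ratios than the WT points, and female WT replicate 3 is the one point under the line for a ratio of 1.

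Nrip1, the corepressor gene, was close to the same mean level in both genotypes of males and was lower in LKO females. In male WT it stood at 62.5, 52.1, 43.2 and 62.9 CPM, and in male LKO at 54.0, 57.9, 49.1 and 55.9 CPM. The male LKO libraries lay inside the range of the male WT libraries. In female WT it stood at 65.2, 52.9, 58.3 and 60.1 CPM, and in female LKO at 47.2, 47.0, 33.5 and 50.5 CPM. The female groups did not overlap, and female LKO replicate 3 was the lowest of the 16 libraries. Its log2 fold change came to -0.02 (SE 0.11) in males, -0.41 (SE 0.12) in females and -0.22 (SE 0.098) over both sexes. Without female LKO replicate 3 the female value was -0.29. Over both sexes it was -0.08 (SE 0.11) without the 6 libraries of the mixed run and -0.37 (SE 0.17) with them alone.

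Counts of calls place these values against all genes. Under edgeR's quasi-likelihood test 1 of the 5 genes, Esrrg, had an adjusted p below 0.05 over both sexes, where 0.269% of the 15598 genes tested did. The 30 alternative fits reuse the same libraries, so the 27 in which that call held are no further evidence for it. The call was lost with the title number as a covariate, with the run of numbers as a factor and with the mixed run alone. At an unadjusted p below 0.05 there were 4 of the 5, where 11.2% of all genes were. Within males 0 of the 5 passed, where 0.0527% of all genes did, and 3 of the 5 had an unadjusted p below 0.05, where 5.29% did. Within females 0 of the 5 passed, where 0.0392% did, and again 3 had an unadjusted p below 0.05, where 11.7% did. DESeq2 called Esrrg and Ppargc1a over both sexes, where it called 1.45% of all genes, and Esrrg alone within males and within females, where it called 0.385% and 1.02%. The genotypes did not overlap for 2 of the 5 genes in males (Esrrg and Ppargc1b), where 2.95% of all genes did not overlap, and for 3 of the 5 in females (Esrrg, Ppargc1a and Nrip1), where 6.31% did not. Since the genes were chosen with these differences known, nothing is read from these counts.

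The difference of the genotype effect between the sexes was tested with an interaction term over all 16 libraries. For 0 of the 5 genes did it pass, and 0% of the 15598 genes passed under edgeR or DESeq2. An unadjusted p below 0.05 was found for 1 of the 5 and for 5.64% of all genes. The 1 member was Nrip1, whose log2 fold change was 0.38 (SE 0.17) higher in males than in females, with a 95% interval from 0.01 to 0.75, an unadjusted p of 0.0437 and an adjusted p of 0.845 over all genes. For Esrrg the effects differed by 0.06 (SE 0.27, edgeR adjusted p 0.984), with an interval from -0.51 to 0.63, so that differences within that interval could not be resolved with 4 libraries per group. For Ppargc1a the difference was 0.07 (SE 0.19, edgeR adjusted p 0.966), for Ppargc1b 0.13 (SE 0.18, edgeR adjusted p 0.922) and for Esrra -0.11 (SE 0.089, edgeR adjusted p 0.881). The interval for Esrra, from -0.29 to 0.08, was the narrowest of the 5.

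**Figure D4:**
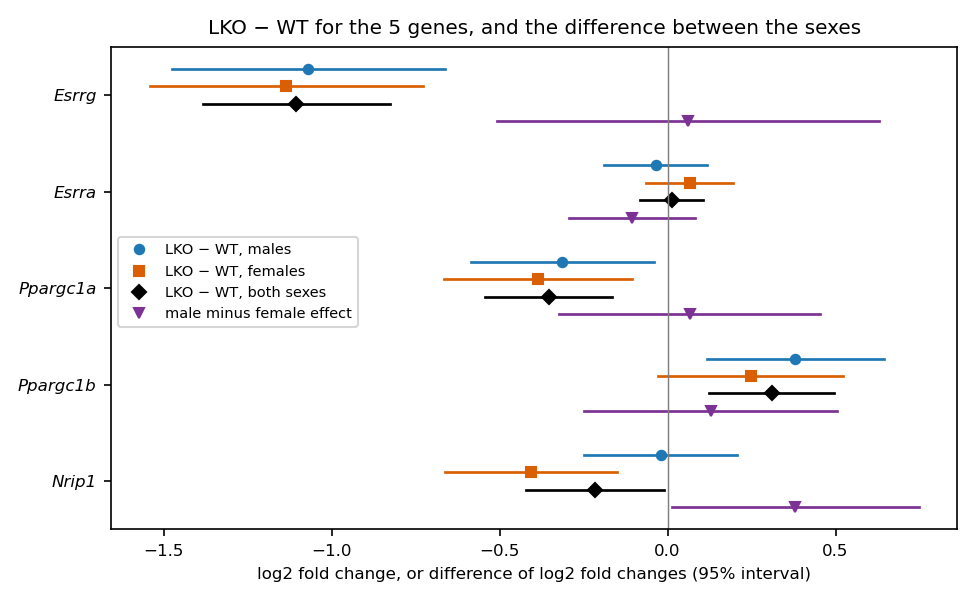
Log2 fold changes, LKO against WT, of the 5 genes in males, in females and over both sexes, and the male minus the female effect, each with its 95% interval from edgeR. The 3 genotype values of Esrrg lie between -1.14 and -1.07, and the interval of the sex difference holds 0 for 4 genes and runs from 0.01 to 0.75 for Nrip1, whose adjusted p was 0.845.

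The sexes were compared within each genotype. In WT, 0 of the 5 genes passed the edgeR test, where 0.25% of 15229 genes did, and the sexes overlapped for all 5, where 8.38% of all genes did not overlap. At an unadjusted p below 0.05 there was 1 of the 5, against 13.9% of all genes, which is near that share. It was Ppargc1a, at 13.7 ± 1.15 CPM in male WT and 16.8 ± 3.32 CPM in female WT (SD, n = 4 each), a log2 difference, males minus females, of -0.30 (SE 0.13, edgeR adjusted p 0.319). In LKO, 0 of the 5 genes passed, where 0.0984% of 15250 genes did, and the sexes again overlapped for all 5, where 12.9% of all genes did not. Of the 5, 1 had an unadjusted p below 0.05, against 22.6% of all genes, which again is near that share. It was Nrip1, at 54.2 ± 3.79 CPM in male LKO and 44.5 ± 7.52 CPM in female LKO (SD, n = 4 each), a log2 difference of 0.28 (SE 0.11, edgeR adjusted p 0.177). DESeq2 called 0 of the 5 genes in either genotype, where it called 2.45% of all genes in WT and 7.5% in LKO. Esrrg differed between the sexes by 0.08 (SE 0.17, edgeR adjusted p 0.873) in WT and by 0.15 (SE 0.21, edgeR adjusted p 0.703) in LKO, with 95% intervals from -0.29 to 0.45 and from -0.30 to 0.60.

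Genes on which the ERR receptors act were read from lists of known targets. Of 161 genes in 8 lists around the receptors, 153 were tested over both sexes, 4 were called higher in LKO, where 0.122% of all genes were, and 0 lower. All 4 belong to fatty acid oxidation, a list of 20 genes of which 16 had a positive log2 fold change. The median of that list was 0.14, beside 0.00065 over all genes tested, and 11 of its genes were higher and 1 lower at an unadjusted p below 0.05, a threshold passed by 11.2% of all genes over both sexes. The lists were chosen with earlier results of these libraries known, Acadl among them, so these counts and the calls below are not independent evidence.

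Acadl, the long-chain acyl-CoA dehydrogenase, rose from 127, 115, 155 and 134 CPM in male WT to 171, 174, 206 and 204 CPM in male LKO, and from 119, 127, 132 and 125 CPM in female WT to 166, 161, 165 and 159 CPM in female LKO. No LKO library overlapped WT in either sex, and the log2 fold change over both sexes was 0.44 (SE 0.058, edgeR adjusted p 0.000834). Hadha, the alpha subunit of the mitochondrial trifunctional protein, rose in males from 302 ± 19.8 to 364 ± 25.2 CPM, and in females from 299 ± 16.6 to 348 ± 23.7 CPM (SD over 4 libraries). Its log2 fold change over both sexes was 0.24 (SE 0.047, edgeR adjusted p 0.0321), and the genotypes did not overlap in either sex. Cpt2, the carnitine palmitoyltransferase of the inner mitochondrial membrane, rose in males from 129.8 ± 11.8 to 160.0 ± 8.23 CPM, and in females from 132 ± 10.4 to 152 ± 9.58 CPM (SD over 4 libraries). Its fitted value was 0.25 (SE 0.051), with an edgeR adjusted p of 0.0426. Its female groups overlapped. Slc25a20, the carrier that exchanges acylcarnitine for carnitine across that membrane, rose in males from 90.4 ± 8.06 to 117 ± 11.9 CPM, and in females from 100.5 ± 12.3 to 126 ± 18.7 CPM (SD over 4 libraries), with a log2 fold change of 0.35 (SE 0.072), an edgeR adjusted p of 0.047 and overlap in both sexes.

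As a description of how far these calls rest on single libraries, Acadl was called whichever library was left out, and the other 3 genes were not. The count for the list stayed at 4 or 5 without male WT replicate 3 or 4, male LKO replicate 3 or female WT replicate 3. It fell to 2 without male LKO replicate 1, female WT replicate 4 or female LKO replicate 4, and to 1 without male WT replicate 1 or 2, male LKO replicate 2 or 4, female WT replicate 1 or 2, or female LKO replicate 1, 2 or 3. With the title number as a covariate or the run of numbers as a factor it was 0, as it was with the 6 libraries of the mixed run alone, and without those it was 1. DESeq2, which called 1.45% of all genes, called 7 genes of the list higher, the same 4 and Acaa2, Acadvl and Cpt1a, which are named after their values were seen. The median of the list stayed between 0.11 and 0.19 in all these settings.

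**Figure D5:**
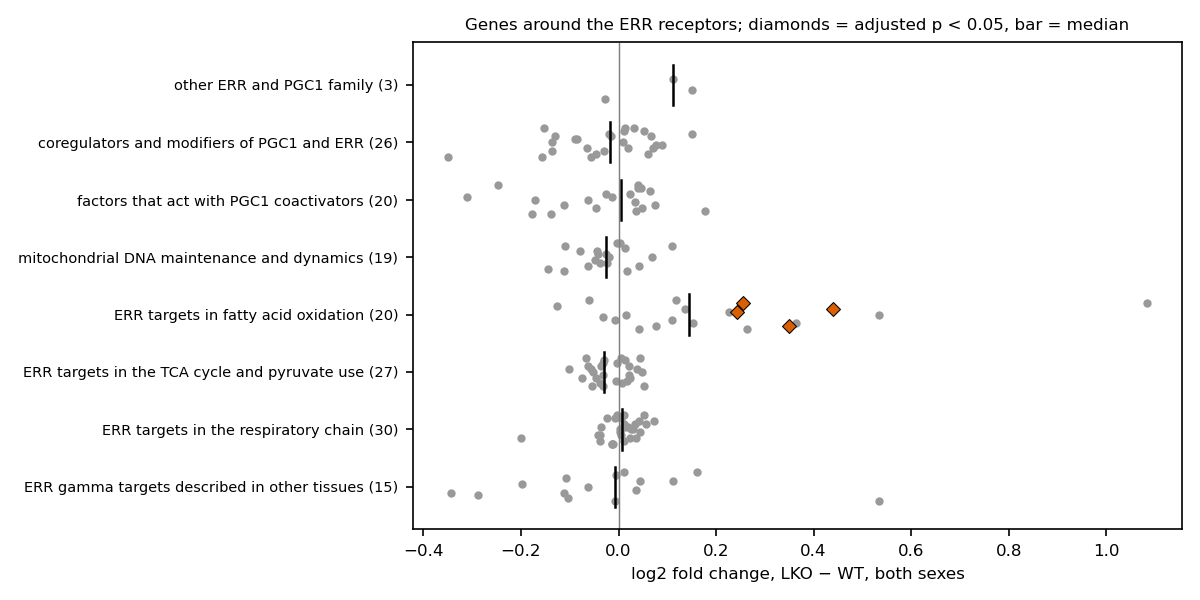
Log2 fold changes, LKO against WT over both sexes, of the tested genes of 8 lists around the ERR receptors, with 1 point per gene, the number of tested genes in brackets and a bar at the median of each list. The diamonds are Acadl, Slc25a20, Cpt2 and Hadha, the genes with an edgeR adjusted p below 0.05, and the medians of the TCA cycle and respiratory chain lists lie at -0.03 and 0.01.

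The other metabolic targets differed little between the genotypes. Of 27 genes of the TCA cycle and pyruvate use, 0 were called by edgeR or DESeq2 and 0 had an unadjusted p below 0.05, with a median log2 fold change of -0.03 and values between -0.10 and 0.05. The smallest p-values belonged to Suclg2, a subunit of succinyl-CoA synthetase, at -0.10 (SE 0.051), and to the malate dehydrogenase gene Mdh1, at -0.07 (SE 0.041). Of 30 genes of the respiratory chain, likewise 0 were called by either tool and 0 had an unadjusted p below 0.05, with a median of 0.01. Ndufs7, a subunit of complex I, stood at 0.06 (SE 0.054) and Atp5c1, a subunit of ATP synthase, at -0.04 (SE 0.041). Cycs, the gene of cytochrome c, had -0.20 (SE 0.16) at a mean of 7.84 CPM in male WT, and since it has many near-identical pseudogene copies and reads with several positions were dropped, its count is uncertain. Of 19 genes of mitochondrial DNA maintenance and dynamics 0 were called by either tool. An unadjusted p below 0.05 was found for 1, the fusion gene Opa1 at -0.11 (SE 0.047), and for 11.2% of all genes. The helicase gene Twnk stood at 0.11 (SE 0.055) and the carrier gene Ucp2 at 0.07 (SE 0.040).

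Targets described for ERRγ in other tissues gave 0 calls by either tool among 15 tested genes, with 2 at an unadjusted p below 0.05, near the 11.2% of all genes, and a median of -0.01. Fgf1, a growth factor gene, stood at -0.20 (SE 0.064, edgeR adjusted p 0.208), Vegfa, the angiogenic factor gene, 0.16 (SE 0.069, edgeR adjusted p 0.371), and Pdk4, an inhibitory kinase of pyruvate dehydrogenase, 0.53 (SE 0.29, edgeR adjusted p 0.54). Another 5 genes of that list were too low to test: Cyp7a1 had 0 counts in every library, and Hamp, Fgf21, Kcne2 and Atp4b had at most 7, 3, 4 and 2.

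The remaining receptors, coactivators and partners gave no edgeR call. Esrrb, the third ERR receptor gene, was low, with 8 to 39 counts in a library and group means between 0.566 and 0.794 CPM. Its fitted difference was -0.03 (SE 0.24, edgeR adjusted p 0.982). Pprc1, the third PGC1 family gene, stood at 0.15 (SE 0.077, edgeR adjusted p 0.484) and Perm1, a PGC1 and ERR induced regulator first described in muscle, at 0.11 (SE 0.14, edgeR adjusted p 0.812). The orphan receptor genes Nr0b1 and Nr0b2 were too low to test, with at most 0 and 13 counts in a library. Of 26 coregulators and modifiers, 0 were called by edgeR and 6 had an unadjusted p below 0.05, where 11.2% of all genes did. Prox1, a corepressor of ERRα and PGC1α, had the smallest p of these and was called lower by DESeq2. It averaged 6.21 ± 0.745 CPM in male WT, 5.06 ± 0.516 CPM in male LKO, 6.83 ± 1.07 CPM in female WT and 5.14 ± 0.435 CPM in female LKO (SD, n = 4 each), and its fitted value was -0.35 (SE 0.097, edgeR adjusted p 0.133). The AMP-activated kinase subunit genes Prkab1 and Prkaa1 stood at 0.15 (SE 0.044) and -0.14 (SE 0.046). Of 20 further transcription factors that use PGC1 coactivators, 0 were called by either tool and 4 had an unadjusted p below 0.05, where again 11.2% of all genes did. The glucocorticoid receptor gene Nr3c1 stood at -0.18 (SE 0.057), Srebf1 at -0.17 (SE 0.063) and Pparg at -0.31 (SE 0.12).

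Receptors of this family bind as single molecules or pairs to a short extended core element, and promoters of the members and lists were searched for it to place the lists beside a sequence feature. The motifs were TNAAGGTCA and the shorter AAGGTCA, which every copy of the former contains, on both strands of the RefSeq promoters of GRCm38.p6, from 250 bases before to 50 bases after each start. Promoters were found for 4 of the 5 members, and 0 of the 4 held either motif. Over all 27025 genes with a promoter, 1.432% held TNAAGGTCA and 5.38% held AAGGTCA. In the fatty acid oxidation list 0 of 17 genes held the longer motif and 1 of 17 the shorter one, Acadm, the medium-chain acyl-CoA dehydrogenase, whose log2 fold change was -0.01 (SE 0.044). The shorter motif was also found in 3 of 24 genes of the TCA cycle list, 1 of 22 of the respiratory chain list, 2 of 16 of the ERRγ target list (Acadm among them), 2 of 17 of the mitochondrial DNA list, 2 of 19 of the factors, 1 of 5 of the other family genes and 0 of 22 of the coregulators. The longer motif was found in 1 of 24 genes of the TCA cycle list, Sdhd (a subunit of succinate dehydrogenase), and in 1 of 22 genes of the respiratory chain list, Atp5g3 (a subunit of ATP synthase), with log2 fold changes of -0.04 (SE 0.041) and 0.01 (SE 0.041). The windows are shown since they hold every match in these 3 lists of metabolic targets for the longer motif and the one match of the fatty acid oxidation list. They are written 5′ to 3′ on the plus strand of the genome with the motif in capitals, at chr3:153944876-153944893, chr9:50603800-50603823 and chr2:73911360-73911388. Of the 4 called genes of fatty acid oxidation, 0 held either motif in this window, which says nothing of sites elsewhere.
Acadm: ccggagcccgAAGGTCAc
Sdhd: agggcTCAAGGTCActctacaacc
Atp5g3: gggaagacgcTCAAGGTCActttgtaaca

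Some markers of other cells differed between the genotypes beside these genes. Of 8 enteroendocrine markers all 8 had a negative log2 fold change, 4 of them at an unadjusted p below 0.05, where 11.2% of all genes had one. Chgb, which encodes a protein of secretory granules, was called lower at -0.30 (SE 0.061, edgeR adjusted p 0.0458), where 0.269% of all genes were called. The summed level of the 8 markers ranged from 310.4 to 383 CPM in male WT, 305 to 341 CPM in male LKO, 309 to 357 CPM in female WT and 263 to 304 CPM in female LKO. Kit, which marks interstitial cells of Cajal, the pacemaker cells of the gut wall, was called lower at -0.25 (SE 0.052, edgeR adjusted p 0.047). The 3 markers of these cells had a median log2 fold change of -0.03 and a highest value of -0.02, so Kit alone stood apart. Their summed level ranged from 94.3 to 98.4 CPM in male WT and 71.3 to 94.3 CPM in male LKO. In females it ranged from 107 to 118 CPM in WT and 92.4 to 104 CPM in LKO. Kit made up most of this sum, with 63.4 of a mean of 96.0 CPM in male WT. Within males and within females the edgeR adjusted p was 0.621 and 0.227 for Chgb and 0.611 and 0.241 for Kit. With the run of numbers as a factor 0 genes were called over both sexes, so neither call held there. Of 5 Paneth cell markers all 5 had a positive value and 0 were called by edgeR. An unadjusted p below 0.05 was found for 4, where 11.2% of all genes had one, and DESeq2 called 2, where it called 1.45%. Their sum ranged from 7274 to 8803 CPM in male WT and from 11382 to 13489 CPM in male LKO, and from 9670 to 13315 CPM in female WT and from 11338 to 12918 CPM in female LKO. The 6 B cell markers summed to over 50 CPM in male WT replicate 2, female WT replicate 3 and female LKO replicates 2 and 3, up to 291 CPM. Without these 4 libraries the log2 fold change over both sexes was -1.01 (SE 0.15) for Esrrg, -0.32 (SE 0.093) for Ppargc1a, 0.35 (SE 0.11) for Ppargc1b and -0.15 (SE 0.091) for Nrip1. The part of the enteroendocrine, interstitial and Paneth cell markers in these values was not tested. The 10 absorptive enterocyte markers summed to overlapping ranges in all 4 groups, from 16482 to 23038 CPM. Of 15 core clock genes 0 were called by either tool and 0 had an unadjusted p below 0.05, and their sums overlapped between all groups, from 413 to 536 CPM.

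Genes whose pattern was most like that of Esrrg were ranked by Pearson's r of log2 CPM over the 16 libraries, among 14422 genes with a mean of at least 1 CPM. These correlations are descriptions: the libraries share the 4 groups, which set most of the Esrrg pattern, and differ in depth. The highest r belonged to Entpd5 (0.846), a nucleotide diphosphatase of the endoplasmic reticulum, Npl (0.841), a sialic acid lyase, Usp40 (0.837), a deubiquitinase, Golim4 (0.833), a Golgi protein, and Akr1c14 (0.832), a hydroxysteroid dehydrogenase. The lowest belonged to the chemokine gene Ccl17 (-0.878), the serine synthesis gene Phgdh (-0.820), the mitochondrial glutamate carrier gene Slc25a22 (-0.816), Acadvl (-0.808), the very long-chain acyl-CoA dehydrogenase, and Tmem39b (-0.805), a membrane protein gene. Once group means were subtracted, r fell to 0.711 for Entpd5, 0.468 for Npl, 0.385 for Usp40, 0.634 for Golim4 and 0.063 for Akr1c14, and Ces1f, a carboxylesterase gene, led with 0.818, followed by Cnrip1 (0.812), 9230105E05Rik (0.807), the peroxiredoxin gene Prdx1 (0.799) and the neuropeptide gene Nmb (0.789). Among the other members r with Esrrg was 0.584 for Ppargc1a, -0.506 for Ppargc1b, 0.486 for Nrip1 and -0.140 for Esrra, and 0.226, 0.174, 0.119 and -0.110 once group means were subtracted. Between the other members the strongest value was that of Esrra with Nrip1, -0.614, and it was -0.581 once group means were subtracted.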

How the data were processed

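RNA from 16 ilea, 4 per group, was sequenced from poly(A) libraries. Per the study's methods, the authors aligned single-end reads with STAR 2.5.2 to mm10, kept uniquely mapped reads, counted exons with HOMER 4.10 and deposited raw counts, condensed to 1 transcript per gene and not normalized. Reads shared with near-identical copies are therefore missing. The strand option and annotation version are not given in the sources used here.

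From these counts, edgeR 4.0.16 (R 4.3.3, limma 3.58.1) fitted robust quasi-likelihood models with TMM scaling and the default filter on low counts by group. The comparisons were genotype over both sexes with sex as a covariate, genotype within each sex, the interaction of genotype and sex, and sex within each genotype. Benjamini-Hochberg adjustment ran over all genes tested, with a threshold of 0.05, and intervals are 95% intervals of the fit. DESeq2 1.42.0, the study's own test, was run as an alternative. Log2 CPM used a prior count of 2, and CPM values are linear. The depth was 15.7 to 60.3 M counts, at which 3 counts equal 0.0485 to 0.191 CPM, and limits from counts cover counting error only. The code was tested on simulated counts.

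The members and the lists of genes were chosen with earlier results of these data known. Named genes are the members, any list gene called over both sexes, the 3 genes of smallest p in each list around the receptors, the 5 genes most and least like Esrrg, the 5 most like it once group means were subtracted, and Bcl6. A gene that this rule names is not reported here. Genes named outside this rule are named as called by DESeq2 only, as holding the motif, or as too low to test. Of the listed genes, 276 were in the table and 2 were not. Alternatives were other scalings, filters, fits and tools, the replicate number as a block, the title number or its run as a term, and leaving out each library. The mixed run alone, its absence, and the absence of the libraries rich in B cell markers were added after the data were seen. Deviations of same-numbered replicates of different groups had a median correlation close to that of other pairs. Promoter sequences are from RefSeq, GRCm38.p6.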

Additional observations from a re-analysis of the deposited data

Results flagged for a closer look

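In the 20 groups of 4 libraries that the 5 genes and 4 groups make up, 2 held a library whose gap to its nearest neighbour, divided by the range of the group, exceeded the critical value of Dixon's test, and chance gives about 1 in 20. Ppargc1a stood at 21.7 CPM in female WT replicate 3, far above the other female WT libraries, with a gap of 0.831 of the range. This is also the library with the second highest level of B cell markers in WT. Ppargc1b stood at 9.89 CPM in male WT replicate 1, below the other male WT libraries, with a gap of 0.859 of the range. The cause of either value was not tested.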

How the results depend on the processing

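Esrrg kept its direction in all 30 alternative fits over both sexes, which reuse the same libraries. Its log2 fold change ran from -1.30 to -0.62, the latter with the libraries of the mixed run alone. In males it was -0.60 with the title number as a covariate. Ppargc1a stayed between -0.45 and -0.25, Ppargc1b between 0.20 and 0.36, Nrip1 between -0.37 and -0.08 and Esrra between -0.03 and 0.04. Low counts limit Esrrg, and 4 libraries per group limit every interaction. The counts of called genes depended strongly on the fit, and the cause was not tested, except that fewer libraries entered where libraries were left out.

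Over both sexes 42 genes (19 higher, 23 lower) were called, against 223 (84 higher, 139 lower) with DESeq2, 16 with the replicate block, 2 with the title number, 0 with the title run as a factor, 0 with the mixed run alone, 13 without it and 5 without the libraries rich in B cell markers. Of the fatty acid oxidation list 4 genes were called, against 7 with DESeq2, 1 with the replicate block, 0 with the title number, 0 with the title run, 0 with the mixed run alone, 1 without it and 2 without the libraries rich in B cell markers. In males 8 were called, against 63 with DESeq2, 25 with no filter, 16 with the block and 3 with the title number. In females 6 were called, against 154 with DESeq2, 15 with no filter, 10 with edgeR's newer quasi-likelihood method and 15 with the block. Between the sexes in WT 38 were called, against 261 with DESeq2, 71 with no filter, 14 with at least 10 counts in every library and 12 with a non-robust fit. Between the sexes in LKO 15 were called, against 1069 with DESeq2, 78 with upper-quartile scaling, 139 with no filter, 1 with at least 10 counts in every library and 8 with a non-robust fit.

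With 1 library left out, the counts ranged from 5 (without male WT replicate 1) to 102 (without male WT replicate 4) over both sexes, from 1 to 5 for the fatty acid oxidation list, from 5 to 29 in males, from 0 to 4 in females, from 0 to 1 for the interaction, from 9 to 64 between the sexes in WT and from 7 to 665 between the sexes in LKO. The interaction of Esrrg ranged from -0.074 to 0.17, and turned its sign without male WT replicate 4 (-0.074), female WT replicate 3 (-0.026) or female LKO replicate 3 (-0.047). That of Ppargc1a ranged from -0.079 to 0.14, and turned without male LKO replicate 2 (-0.012) or female WT replicate 3 (-0.079). The sex difference in WT ranged from -0.014 to 0.067 for Esrra, from -0.17 to 0.00064 for Nrip1 and from -0.016 to 0.22 for Esrrg. It turned its sign for Esrra without male WT replicate 3 (-0.0058) or female WT replicate 1 (-0.014), for Nrip1 without male WT replicate 3 (0.00064) and for Esrrg without female WT replicate 4 (-0.016). None of these values passed the test in any of these fits.

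The labels give the same replicate numbers to all groups. Over 24 pairs of same-numbered libraries, the correlation of deviations from the group means lay between -0.10 and 0.26 with a median of -0.0032. The median over pairs with different numbers was -0.0066. Of the 24 pairs, 6 exceeded 0.1. Subtracting group means holds the average of all pairs near 0, so this check cannot exclude shared handling of single pairs. With the replicate block Esrrg stood at -1.10 (SE 0.13) over both sexes, and 16 genes were called in place of 42.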
